A study of Mus musculus with 48 samples.

Results

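The genes described here encode the extracellular matrix and the integrins that bind it. They were taken from the Q3-normalized tables by symbol: collagens (Col followed by a number), laminin chains, integrin alpha and beta genes, thrombospondins, link proteins (Hapln), and the single genes Tnr, Bcan, Ncan and Agrn. The tables held 77 such members among 15782 genes. Fn1, Tnc, Acan, Vcan, Hspg2 and Cd44, which the same rule names, were not analysed here. The integrin pattern also took in Itgb1bp1, Itgb3bp, Itgbl1 and Itgb2l, which are kept below as a class of their own because the first 3 are named after integrins without being receptor chains.

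The tissue came from 12 male C57BL/6 mice that were 10 weeks old at launch. A flight group (FLT) spent 35 days in orbit and reached the laboratory within 20 h of splashdown, and a ground control group (GC) was kept for the same length of time in a protocol that began 3 days later. Each was divided into mice given saline (SAL) and mice given BuOE, a manganese porphyrin that mimics superoxide dismutase, injected under the skin at 1 mg/kg in 0.2 mL from 7 days before launch and weekly after that. The 4 resulting groups, of 3 mice each, are written GC-SAL and FLT-SAL for saline and GC-BuOE and FLT-BuOE for the drug. In every mouse 1 area of illumination (AOI) was collected from each of 4 regions: the Cornu Ammonis 1 (CA) and the dentate gyrus (DG) of the hippocampus, the frontal cortex (FCT) and the cortex (CT). All animals shared the same strain and sex. The sections of a group shared 1 slide, so that group and slide cannot be told apart.

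The matrix of the brain differs from that of connective tissue. Its bulk consists of hyaluronan bound by the lectican proteoglycans neurocan and brevican, fixed by link proteins and cross-linked by tenascin-R, and around many parvalbumin interneurons it condenses into perineuronal nets. Fibrillar collagens and collagen VI are mostly found in the meninges and along large vessels, whereas collagen IV, laminins and agrin form the basement membrane of capillaries. Integrins are pairs of an alpha and a beta chain that hold cells to these ligands, for example the laminin receptor made of the chains encoded by Itga7 and Itgb1.

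The region labels were checked against marker genes. The summed Q3-normalized count of 6 CA1 pyramidal cell genes was 449.5 to 648.1 in the CA and 146.8 to 189.1 in the DG, and that of 10 dentate granule cell genes was 495.5 to 770.1 in the DG and 252.6 to 304.5 in the CA. All 6 of the former were called lower in the DG than in the CA and 6 of the latter were called higher. For 8 genes of cortical excitatory neurons the sum was 302.5 to 414.5 in the FCT and 306.2 to 491.4 in the CT, against 253.5 to 319.2 in the CA and 249.0 to 306.1 in the DG. The total probe count of an AOI ranged from 322629 to 1579380, with a median of 991426 on the FLT-SAL slide and of 548888 to 639735 on the others, and 1 GC-SAL AOI of the CT held 140 nuclei where the other AOIs held 250 to 640.

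Most of the members were measured only just above background. The background of an AOI is the Q3-normalized value of its negative-control probes, designed to bind nothing in the tissue. The ratio of a gene's value to it was averaged over the 48 AOIs. By that measure 72 of 77 members reached 1.5 times the background (93.5%, against 91.7% of all genes), but only 14 reached 2 times. The share of all genes at 2 times is not given here. Col4a3, Itgb2, Thbs2, Lama2 and Itgad stayed below 1.5, with ratios of 1.38, 1.39, 1.39, 1.46 and 1.48. These 5 are set apart: their values are close to those of a probe with no target, and differences among them carry little information. Each gene was read by a single probe, so the ratios rank genes by how far they stood above background and not by transcript abundance.

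The 5 highest ratios belonged to Ncan, Agrn, Bcan, Col4a2 and Col6a1, and within a class the members differed widely. Among the lecticans and tenascin-R, Ncan (neurocan) had a ratio of 5.74, Bcan (brevican) 3.39 and Tnr 1.60. Agrn, the proteoglycan agrin, had 3.65. In collagen IV, the sheet-forming collagen of basement membranes, Col4a2 had 3.30, Col4a1 2.51 and Col4a4 1.54. Col6a1, a chain of the beaded-filament collagen VI, had 3.04, while its partner chain Col6a2 had 1.83 and Col6a4 1.80. The link proteins ran from Hapln4, the brevican-binding member, at 2.74 through Hapln1 at 2.00 and Hapln2 at 1.90 to Hapln3 at 1.59.

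In the other classes no member reached 2.5. Among 8 laminin chains Lamb1 (2.32), Lama5 (1.97) and Lamc1 (1.69) led. The 9 fibrillar collagens were headed by Col5a1 (2.31), Col11a1 (1.99) and Col11a2 (1.82), and the 6 fibril-associated collagens by Col19a1 (2.29), Col20a1 (1.93) and Col9a2 (1.92). The transmembrane collagens Col13a1 (1.95), Col23a1 (1.60) and Col25a1 (1.53), the multiplexin Col15a1 (1.71), and Col26a1 (2.22), Col10a1 (1.66) and Col8a1 (1.65) were the leading members of the smaller collagen classes. The bone and skin collagen genes Col1a1 and Col1a2 had 1.66 and 1.67. Of 14 integrin alpha chains Itga7 (2.19), Itgav (2.16) and Itga11 (1.94) were highest, and of 8 beta chains Itgb1, Itgb3 and Itgb8, with 1.99, 1.99 and 1.95. Thbs3 (1.95), Thbs4 (1.73) and Thbs1 (1.55) were the 3 leading thrombospondins, a family of secreted adhesive glycoproteins. Among the 4 integrin-named genes kept as a class of their own, Itgb1bp1 had 1.84, Itgb3bp 1.73 and Itgb2l 1.65.

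The background itself differed between regions. The negative-probe value was 9.24 to 13.5 in the DG, 12.1 to 18.0 in the FCT, 13.3 to 16.8 in the CT and 16.1 to 20.9 in the CA. With it, the number of members whose mean stood 1.5 times above background was 77 in the DG, 65 in the FCT, 50 in the CT and 26 in the CA. In the same order, a median of 92.7%, 82.5%, 77.9% and 59.8% of all genes per AOI reached 1.5 times, so the fall was general. That share is counted within single AOIs and the member numbers on regional means, so the measures are not the same. In the CA only 4 of 14 integrin alpha chains and 1 of 8 beta chains passed, against all 14 and all 8 in the DG. The plot of ratios by class shows this shift in nearly every class.

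**Figure D1:**
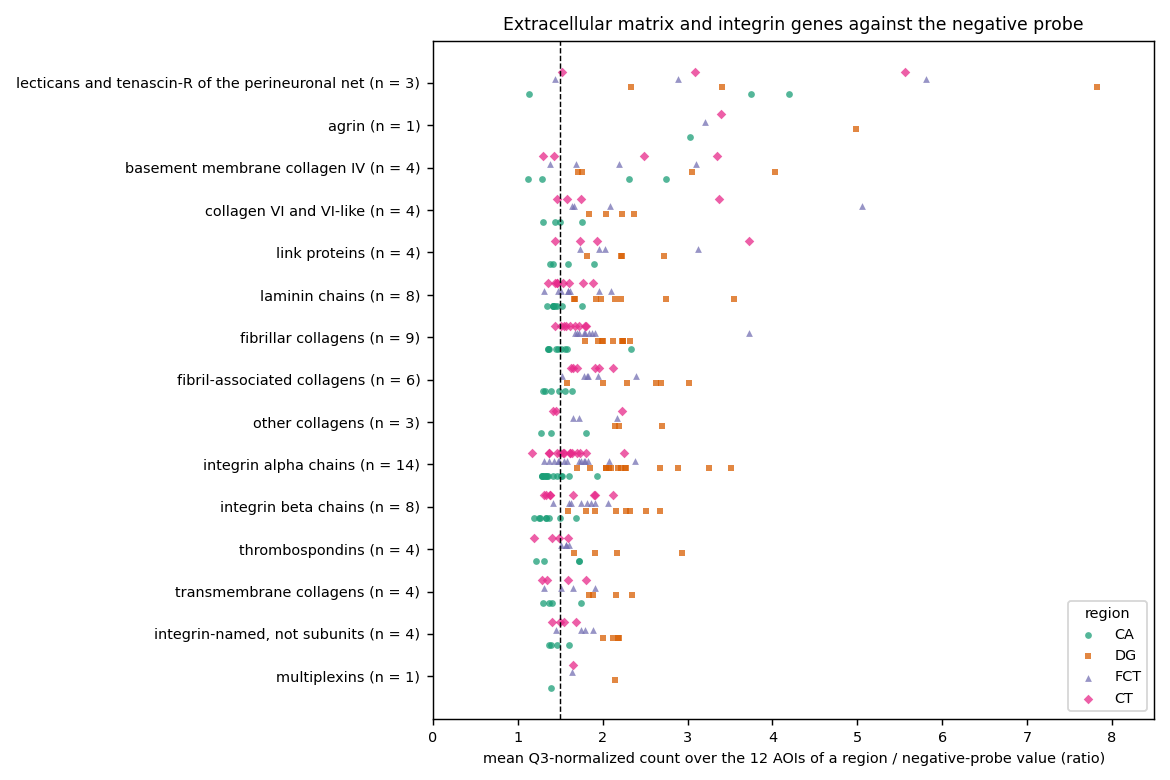
Mean Q3-normalized count of each of the 77 members divided by the negative-probe value, per class (rows) and region (colours and shapes, 12 AOIs each), with a dashed line at 1.5. Ncan, Bcan, Agrn, Col4a2 and Col6a1 stand apart to the right, and most integrin and collagen genes lie between 1 and 2.5 with the DG to the right of the CA.

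Regional differences among the members were found with the 4 regions of a mouse compared within that mouse, by limma on log2(Q3-normalized count + 1) over all 48 AOIs. A gene was called at an adjusted p under 0.05 and a difference beyond 1.5-fold, with Benjamini-Hochberg adjustment over 15782 genes. Between hippocampus (CA and DG) and cortex (FCT and CT), 4 of 77 members were called, where 3.18% of all genes were. Col6a1 and Hapln4 were lower in the hippocampus, and the integrin alpha chains Itga7 and Itga8 were higher. The median log2 difference was 0.06 over the members and 0.03 over all genes, and 52 of 77 members were above 0.

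Col6a1 (ENSMUSG00000001119, GRCm38 chromosome 10, 76708792 to 76726168, minus strand) showed the largest regional difference of the members. Its Q3-normalized count had a lowest, median and highest value over 12 mice of 20.7, 28.1 and 36.9 in the CA, of 18.3, 21.8 and 32.0 in the DG, of 35.4, 71.4 and 109.5 in the FCT, and of 29.7, 46.5 and 72.3 in the CT. The hippocampal mean was below the cortical mean in 12 of 12 mice. The log2 difference was -1.09 (SE 0.08, adjusted p = 1.6e-21 by limma). Within the cortex it was higher in the FCT than in the CT in 10 of 12 mice, a log2 difference of 0.48 (SE 0.12) with an adjusted p of 0.018, which lies under the size threshold. Its DG and CA values overlapped.

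Hapln4 (chromosome 8, 70083457 to 70090862), a link protein of the nets around fast-spiking neurons, ran from 30.6 to 67.9 in the FCT (median 46.6) and from 39.3 to 71.8 in the CT (median 51.8). In the CA it ran from 17.9 to 47.4 (median 35.1) and in the DG from 16.6 to 38.9 (median 22.96). It was lower in the hippocampus in all 12 mice, with a log2 difference of -0.72 (SE 0.08, adjusted p = 3.8e-13). Pvalb, the calcium-binding protein that names the interneurons such nets surround, was also called lower there, by a log2 difference of -1.10 (SE 0.09, adjusted p = 1.85e-20), and it was the 1 called gene among 7 parvalbumin interneuron markers, all 7 of which had a difference below 0.

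Itga8 (chromosome 2, 12106632 to 12301922), the alpha chain of a receptor for fibronectin and nephronectin, had medians of 28.2 in the CA, 34.2 in the DG, 17.8 in the FCT and 19.6 in the CT. Its 12 values in the FCT, 15.1 to 21.8, did not overlap those in the DG, 26.3 to 47.8. In the FCT and CT its ratio to background was 1.30 and 1.37, under 1.5, so that the cortical values are near those of a probe with no target and the size of the difference is uncertain: it was 1.84 after subtraction of the negative-probe value. The hippocampus was higher in 12 of 12 mice (log2 difference 0.73, SE 0.09, adjusted p = 8.5e-12). Itga7 (ENSMUSG00000025348, chromosome 10, 128933818 to 128958282, plus strand), a laminin receptor chain best known from muscle, had medians of 37.2, 39.0, 24.98 and 21.1 in the CA, DG, FCT and CT, with a CT ratio to background of 1.49. It was higher in the hippocampus in 10 of 12 mice, with a log2 difference of 0.61 (SE 0.09, adjusted p = 8.3e-09). This value sits near the size threshold and fell to 0.56, 0.55 and 0.56 without mouse 2 of FLT-BuOE, mouse 1 of GC-BuOE and mouse 1 of GC-SAL, and to 0.54 with a pseudocount of 5, which ends the call on size alone.

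Another 15 members differed between hippocampus and cortex at an adjusted p under 0.05 with smaller differences, which makes 19 in all. Of all genes 32.5% had an unadjusted p under 0.05 in this limma comparison. The share of all genes at an adjusted p under 0.05 without a size limit is not given here, so the 19 are not set apart from the general regional difference. Thbs3 (0.47), Itga4 (0.38), Col25a1 (0.36), Lamb1 (0.30) and Agrn (0.23) were among those with higher values in the hippocampus, and Col5a1 (-0.48), Col16a1 (-0.32) and Itgav (-0.29) among those with lower values, all as log2 differences.

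Within the hippocampus, 2 of 77 members were called between DG and CA, both lower in the DG, where 4.1% of all genes were called. Bcan (ENSMUSG00000004892, chromosome 3, 87987531 to 88000230, minus strand) encodes brevican, the small lectican of the brain, made by astrocytes and neurons. Its Q3-normalized count was 40.02 to 112.9 in the CA with a median of 73.3, and 20.0 to 49.9 in the DG with a median of 38.5. It was lower in the DG in 12 of 12 mice, with a log2 difference of -0.98 (SE 0.10, adjusted p = 3e-14). Col11a1 (chromosome 3, 114030540 to 114220718), a minor fibrillar collagen, was 28.2 to 54.7 in the CA and 18.9 to 30.0 in the DG, again lower in 12 of 12 mice (log2 difference -0.83, SE 0.11, adjusted p = 1.3e-09). With the negative-probe value as a covariate its difference was -0.51 with an adjusted p of 0.513, so that this call did not hold.

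The direction of most other differences between DG and CA depended on how background was handled. After the negative-probe value was subtracted, the median of all genes moved from -0.07 to 0.71 on the log2 scale, 50.5% of all genes were called, and 42 members were called, 40 higher and 2 lower in the DG, with a member median of 0.89. Bcan at -1.06 and Col11a1 at -0.88 were the 2 that stayed lower. Ncan (neurocan) was higher in the DG than in the CA in 12 of 12 mice without subtraction, with counts of 75.6 to 101.5 against 58.0 to 83.0 and a log2 difference of 0.32 (SE 0.08, adjusted p = 0.0012), under the size threshold. The 2 lecticans thus differed in opposite directions between these neighbouring regions.

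Between the 2 cortical regions, 1 of 77 members was called, where 0.101% of all genes were. Col5a1 (chromosome 2, 27886425 to 28039514), a collagen that starts and regulates fibril assembly, was higher in the FCT. The lowest, median and highest counts were 27.04, 46.03 and 88.5 in the FCT and 18.3, 25.3 and 41.5 in the CT, and 12 of 12 mice were higher in the FCT. The log2 difference was 0.87 (SE 0.12, adjusted p = 8.8e-07). The FCT was also the region where the values of Col5a1 and Col6a1 varied most between mice, with SDs of 21.45 and 25.02 over 12 mice. The summed count of 9 marker genes of meningeal and perivascular fibroblasts, the cells that make most fibrillar collagen of the brain, was 183.9 to 247.6 in the FCT and 170.3 to 249.5 in the CT, 6 of the 9 stood 1.5 times above background, none was called between the 2 regions, and the part of these cells in the Col5a1 difference was not tested. In such samples fewer cells of a type and less RNA per cell cannot be told apart.

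**Figure D2:**
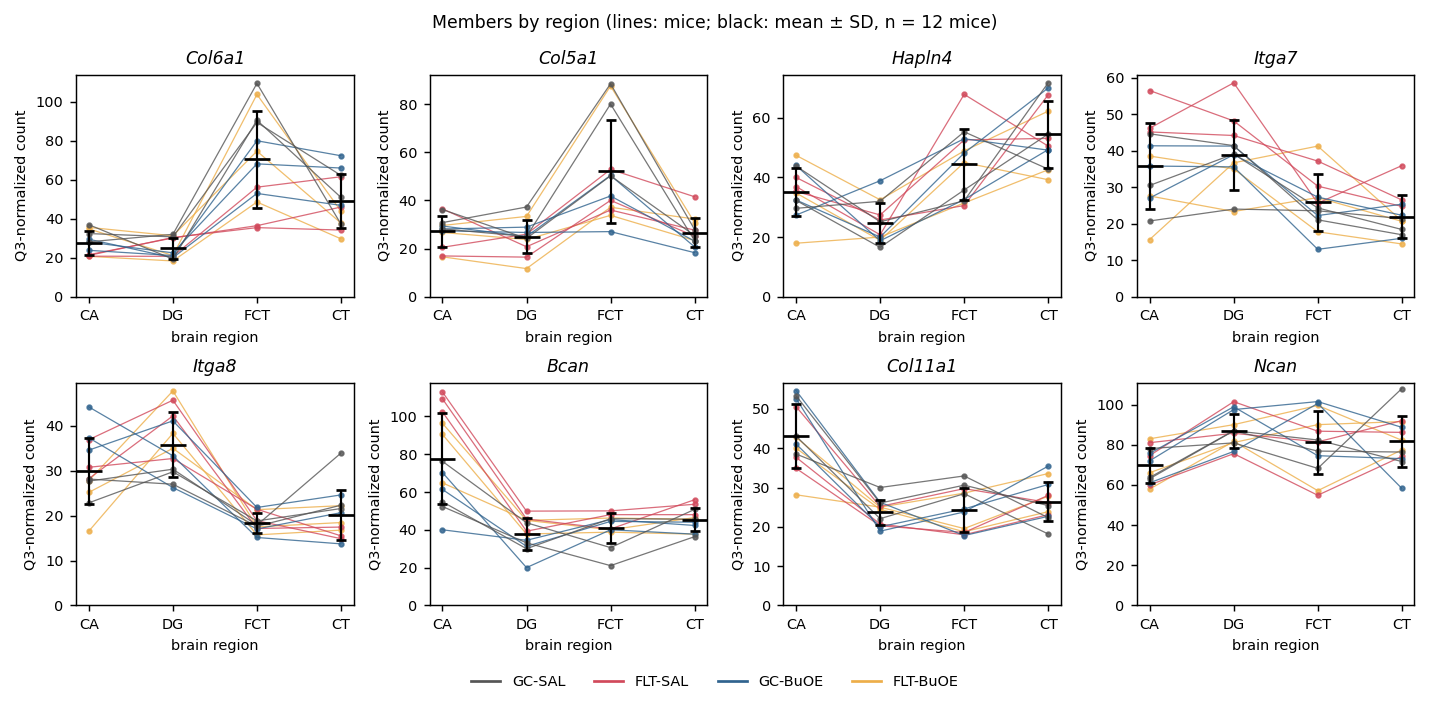
Q3-normalized count of 8 members in the 4 regions, 1 line per mouse coloured by group, with mean ± SD over 12 mice in black. Col6a1 and Hapln4 are higher in both cortical regions, Col5a1 in the FCT, and Itga7 and Itga8 in the hippocampus, and Bcan and Col11a1 are highest in the CA.

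The other genes of the pathway were followed as 3 lists. Between hippocampus and cortex, of 40 other matrix and basement membrane genes 4 were called lower and none higher, including Sparcl1 (-1.08), Spock1 (-0.97) and Spock2 (-0.86), which encode secreted proteoglycans and a SPARC relative. Of 32 genes of matrix synthesis and proteolysis, Bmp1 (0.63), a procollagen protease, was called higher and Timp2 (-0.92), a metalloproteinase inhibitor, lower. Of 28 integrin adhesion adaptors and kinases, 2 were called, both higher in the hippocampus: the focal adhesion kinase relative Ptk2b (1.04) and the scaffold paxillin, Pxn (0.70). Between DG and CA the 3 lists held 4, 4 and 2 called genes, led by Spock3 (1.07), Bmp1 (0.77) and Git1 (-1.12).

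The comparison of FLT-SAL with GC-SAL sets flown beside ground mice without the drug. The 2 groups lay on different slides, so flight and slide cannot be told apart in it. It used 1 limma fit per region on log2(Q3-normalized count + 1) with 12 AOIs. Of 308 pairs of a member and a region, 2 were called and 29 (9.42%) had an unadjusted p under 0.05. The called pairs were Bcan higher after flight in the CA and Col6a1 lower after flight in the FCT. No member was called in the DG or the CT by limma or DESeq2, and edgeR called Col4a2 in the CT. In the CA 0.139% of all genes were called by limma, in the DG 0.266%, in the FCT 0.0507% and in the CT 0.0887%. Shares of all genes here and below are those of limma, and those of edgeR and DESeq2 are not given.

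Bcan in the CA had Q3-normalized counts of 102.4, 112.9 and 109.3 in FLT-SAL mice and of 52.3, 76.2 and 54.8 in GC-SAL mice. All 3 flight values lay above all 3 ground values. The means were 108.2 ± 5.3 and 61.1 ± 13.1 (SD, n = 3), a log2 difference of 0.83 (SE 0.19, adjusted p = 0.039 by limma). The call was lost when any 1 of 6 mice was left out (mice 1, 2 and 3 of FLT-SAL, mice 1 and 3 of GC-SAL, mouse 2 of FLT-BuOE), with adjusted p between 0.054 and 0.318 and log2 differences between 0.73 and 0.87. It was also lost after subtraction of the negative-probe value (1.11, adjusted p = 0.0555). The CA AOIs held 603927 to 948561 counts in FLT-SAL and 370066 to 483270 in GC-SAL mice. The part of depth in the Bcan value was not tested.

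Beside Bcan, the 6 CA1 pyramidal cell genes had a median log2 difference of 0.41 in the CA, 5 of 6 above 0, with Wfs1 called (0.82, SE 0.17, adjusted p = 0.024). The median over all genes was 0.02. The 12 astrocyte markers had a median of 0.18, with none called. The 7 parvalbumin interneuron markers, cells that carry perineuronal nets, summed to 283.7 to 299.4 in FLT-SAL and 235.5 to 255.0 in GC-SAL mice without overlap, and 6 of 7 were above 0 with none called. Whether neuronal, interneuron or astrocyte content of the AOIs had a part in the Bcan value was not tested.

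Col6a1 in the FCT had counts of 35.4, 36.4 and 56.2 in FLT-SAL mice against 90.6, 89.5 and 109.5 in GC-SAL mice. All 3 flight values lay below all 3 ground values. The means were 42.7 ± 11.7 and 96.5 ± 11.2 (SD, n = 3), and the log2 difference was -1.18 (SE 0.20, adjusted p = 0.0021). Leaving out mouse 1 of FLT-SAL, mouse 2 of FLT-SAL or mouse 3 of GC-SAL ended the call: the difference was -1.07, -1.09 and -1.09 and the adjusted p 0.0556, 0.0815 and 0.0695. Negative-probe subtraction kept the call and gave -1.68. In the CA, counts were 21.2, 21.6 and 20.8 after flight against 36.9, 32.4 and 28.2 (log2 difference -0.59, SE 0.26, adjusted p = 0.678), with a mean just under 1.5 times background over the 12 mice. In the DG and CT the groups overlapped, with log2 differences of 0.00 and -0.09. The FCT AOIs also differed in area, with 198761 µm² in each FLT-SAL mouse and 146259 µm² in each GC-SAL mouse. They held 568 to 602 nuclei and 991160 to 1579380 counts after flight, against 400 to 472 and 601288 to 897280 on the ground. The part of area, nuclei and depth in the Col6a1 value was not tested.

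Other collagens were not called in the FCT. Col5a1 was 36.02, 52.9 and 40.02 after flight against 88.5, 50.2 and 80.0 on the ground, where 1 flight mouse exceeded 1 ground mouse (log2 difference -0.73, SE 0.24, adjusted p = 0.534). Col5a2, its partner chain, had -0.57 (adjusted p = 0.796). The fibroblast marker sum in the FCT was 204 to 248 in FLT-SAL and 193 to 226 in GC-SAL mice, with 6 of 9 markers above 0. In the same AOIs the sum of 10 oligodendrocyte genes, none of them called there, was 1306 to 1980 after flight and 1095 to 1271 on the ground, and its part in the Col6a1 value was not tested.

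**Figure D3:**
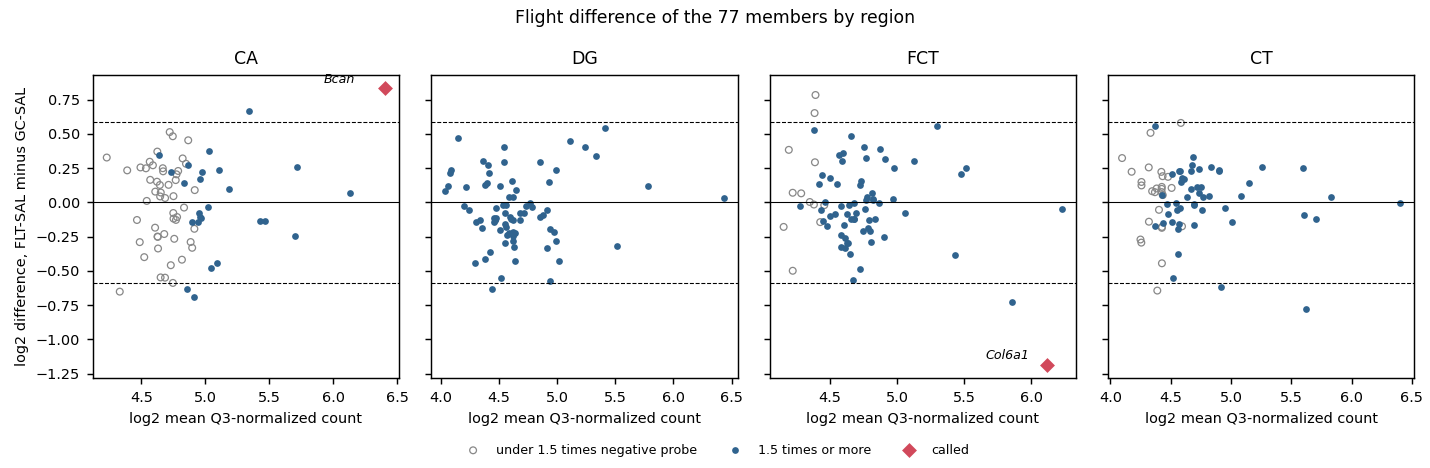
Log2 difference of FLT-SAL minus GC-SAL for the 77 members in each region (vertical) against log2 mean Q3-normalized count (horizontal), open circles for members under 1.5 times background in that region and dashed lines at the size threshold of 1.5-fold. Only Bcan in the CA and Col6a1 in the FCT are called, and nearly all other members lie within the dashed lines.

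As a set the 77 members were divided between both directions. The numbers with a positive log2 difference were 41 in the CA, 27 in the DG, 34 in the FCT and 45 in the CT, and the member medians of 0.04, -0.08, -0.02 and 0.05 lay beside all-gene medians of 0.02, -0.01, 0.03 and 0.01. At an unadjusted p under 0.05 there were 6, 6, 10 and 7 members, against 6.73%, 7.41%, 5.66% and 5.27% of all genes. Groups did not overlap for 12, 8, 14 and 9 members, against 12.9%, 14.8%, 12.1% and 10.4% of all genes.

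The next largest differences, among members at 1.5 times background in their region, did not pass. In the CT, Col4a2 (ENSMUSG00000031503, chromosome 8, 11312805 to 11449287, plus strand) was 27.7, 44.0 and 35.9 after flight and 74.0, 66.7 and 46.5 on the ground. The groups did not overlap, and the log2 difference was -0.78 (SE 0.19, adjusted p = 0.094 by limma and 0.0301 by edgeR). Without mouse 3 of GC-SAL limma called it. Others in the same region were Col26a1 (-0.62), the laminin chain Lama4 (-0.55) and Col1a2 (0.56). In the DG, Col8a1 (-0.63), Itgb1 (-0.58), Col17a1 (-0.55) and Itga7 (0.55) had the largest differences, with adjusted p from 0.408 to 0.686. Itgb1, the beta chain shared by most matrix-binding integrins, was 18.5, 29.6 and 25.7 after flight and 37.3, 34.4 and 38.0 on the ground in the DG. In the CA, Lama2 (-0.69), Itga7 (0.67) and Itgam (-0.63), the complement receptor chain of microglia, followed Bcan.

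Averaging the 4 regions of a mouse before the test brought in 2 further genes. With 12 mice and a call at an adjusted p under 0.05 with no size threshold, 4 of 77 members were called in FLT-SAL against GC-SAL, where 0.843% of all genes were. Itga7 and Bcan were higher after flight, and Col6a1 and Col4a2 were lower. Over all members the median log2 difference was 0.01, as it was over all genes, and 40 of 77 were above 0.

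Itga7 had a mean log2 difference of 0.55 (SE 0.12, adjusted p = 0.0094 by limma) and was higher in 4 of 4 regions. Its counts were 56.5, 45.2 and 46.2 after flight against 44.6, 30.5 and 20.8 in the CA, and 48.2, 44.2 and 58.6 against 41.4, 39.1 and 24.0 in the DG. In the FCT they were 30.3, 37.2 and 25.6 against 21.1, 24.3 and 23.5, and in the CT 24.7, 26.5 and 35.9 against 16.98, 18.4 and 21.4. The flight and ground mice did not overlap in any of the 4 regions, although no region alone gave a call, with adjusted p from 0.410 to 0.945. The averaged call was lost without mouse 2 or 3 of FLT-SAL or mouse 3 of GC-SAL (0.57, 0.52 and 0.45, adjusted p between 0.0604 and 0.114) and after negative-probe subtraction (1.16, adjusted p = 0.118).

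Bcan had a mean log2 difference of 0.49 (SE 0.11, adjusted p = 0.011) and was likewise higher in 4 of 4 regions, by 0.83, 0.34, 0.56 and 0.25 in the CA, DG, FCT and CT. Its call was lost without mouse 2 or 3 of FLT-SAL or mouse 1 of GC-SAL, with values of 0.45, 0.50 and 0.36 and adjusted p of 0.145, 0.0992 and 0.235. Ncan, the other lectican, was not called in any group comparison.

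Col4a2 was lower in 4 of 4 regions, by -0.24, -0.32, -0.39 and -0.78 in the CA, DG, FCT and CT, with a mean of -0.43 (SE 0.11, adjusted p = 0.035). In the FCT the counts were 41.2, 35.7 and 35.1 after flight against 49.5, 47.9 and 49.4. The call was lost without any 1 of the 6 mice of FLT-SAL and GC-SAL, with values from -0.51 to -0.36 and adjusted p from 0.0557 to 0.356, and after negative-probe subtraction (-0.67, adjusted p = 0.0624). Col4a1, whose chain assembles with that of Col4a2 into the main collagen IV trimer and whose gene starts head to head with it on the opposite strand, had a mean log2 difference of 0.00 (SE 0.11), with 2 of 4 regions higher. The difference between the 2 genes was not tested. The 9 endothelial and 9 mural cell markers had no called gene in FLT-SAL against GC-SAL in any region.

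Col6a1 had a mean of -0.47 (SE 0.12, adjusted p = 0.038), made up of -1.18 in the FCT, -0.59 in the CA, -0.09 in the CT and 0.00 in the DG. It was lost without 7 of the 12 mice, namely each of the 6 in FLT-SAL and GC-SAL and mouse 2 of GC-BuOE, with values from -0.52 to -0.41 and adjusted p from 0.0521 to 0.188. Whether the flight difference varied between regions was tested directly with an F test over the 3 differences between regions. No member passed it by limma, 5 of 77 (6.49%) had an unadjusted p under 0.05 where 4.64% of all genes did, and 0.127% of all genes were called. This test was not run with edgeR or DESeq2. Col6a1 came closest (unadjusted p = 0.00039, adjusted p = 0.161), and without mouse 3 of FLT-SAL it passed, with an adjusted p just under 0.05.

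**Figure D4:**
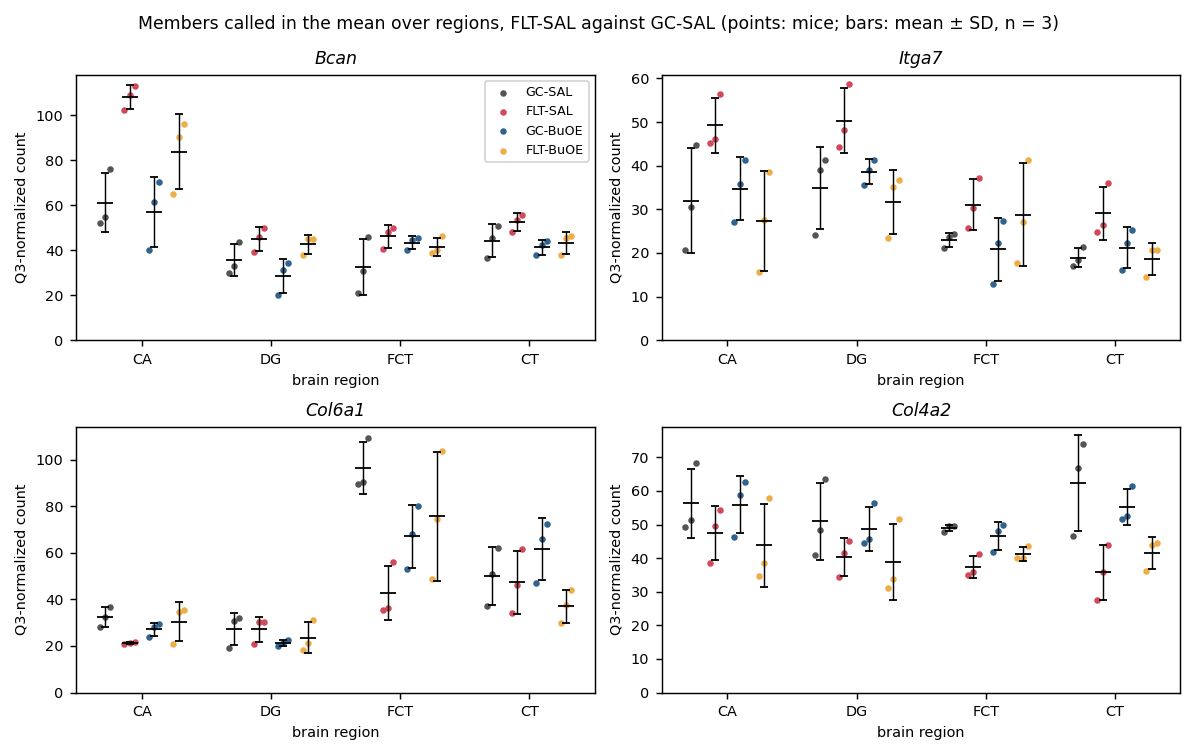
Q3-normalized counts of Bcan, Itga7, Col6a1 and Col4a2 per mouse in the 4 regions, coloured by group, with bars for mean ± SD (n = 3). Bcan in the CA and Itga7 in all regions lie higher in FLT-SAL than in GC-SAL mice, Col6a1 in the FCT and Col4a2 lie lower, and the FLT-BuOE mice of Itga7 lie below FLT-SAL in the CA, DG and CT.

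Sequence upstream of the start site is shown for 2 of the 4 members called in the mean over regions, the only members looked up. For these 2, all or part of the 250 bases before the RefSeq start lies outside annotated genes. Only that part is printed. RefSeq (GRCm38.p6) gave an entry for Bcan, Col6a1 and Col4a2 and none for Itga7. The Col4a2 window falls inside annotated genes and is not printed. Bases are 5′ to 3′ on the strand of the gene, from chr3:88000357-88000606 for Bcan, where the RefSeq start lies further upstream than the GENCODE gene boundary given above, and chr10:76726169-76726294 for Col6a1, and capitals mark CCAAT and GGGCGG, a GC box, on either strand.
Bcan: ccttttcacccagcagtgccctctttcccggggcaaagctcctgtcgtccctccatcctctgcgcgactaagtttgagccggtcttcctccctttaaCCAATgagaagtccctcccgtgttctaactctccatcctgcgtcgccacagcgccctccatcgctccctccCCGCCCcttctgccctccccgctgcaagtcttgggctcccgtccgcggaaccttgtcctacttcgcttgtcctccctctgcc
Col6a1: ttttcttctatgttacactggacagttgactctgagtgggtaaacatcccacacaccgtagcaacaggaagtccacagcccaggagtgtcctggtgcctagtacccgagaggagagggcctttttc
The 250 bases before Bcan hold 1 CCAAT and 1 GC box, read on the opposite strand. Of 32851 windows of that length, 33.9% hold CCAAT and 32.7% the GC box. The 126 bases printed for Col6a1 hold neither, and 21.97% and 26.98% of windows of that length directly before a RefSeq start hold them. The distance of the printed Col6a1 bases from the RefSeq start is not given here, so the positions may differ.

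BuOE in flown mice was examined by FLT-BuOE against FLT-SAL, a comparison that shares the FLT-SAL mice with the one above, so that the values are set side by side and not taken as separate evidence. By limma 0 of 308 pairs were called, while 22 had an unadjusted p under 0.05, and edgeR and DESeq2 called 1 each, Col6a1 in the FCT. Of all genes limma called 0.00634% in the CA, none in the DG, 0.0317% in the FCT and 0.0697% in the CT. Unadjusted p under 0.05 was found for 8, 3, 4 and 7 members in the CA, DG, FCT and CT, against 4.96%, 6.2%, 7.65% and 5.73% of all genes. Groups did not overlap for 9, 8, 8 and 12 members, against 11.3%, 11.8%, 12.5% and 11.4% of all genes.

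Itga7 had the largest difference in both hippocampal regions. In the CA its counts were 27.6, 38.5 and 15.7 in FLT-BuOE mice beside 56.5, 45.2 and 46.2 in FLT-SAL mice, with no overlap (log2 difference -0.91, SE 0.26, adjusted p = 0.433). In the DG they were 23.3, 35.0 and 36.7 beside 48.2, 44.2 and 58.6 (-0.67, SE 0.21, adjusted p = 0.425), and in the CT 20.7, 14.5 and 20.8 beside 24.7, 26.5 and 35.9 (-0.61, SE 0.24, adjusted p = 0.696). In the FCT the groups overlapped, with 27.2, 17.8 and 41.3 in FLT-BuOE mice (-0.17).

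Averaged over regions, Itga7 was the 1 member of 77 called in FLT-BuOE against FLT-SAL, where 0.12% of all genes were. The mean log2 difference was -0.59 (SE 0.12, adjusted p = 0.0097), lower in 4 of 4 regions. It was lost without mouse 1 or 2 of FLT-BuOE or mouse 2 or 3 of FLT-SAL, with values from -0.61 to -0.56 and adjusted p from 0.0574 to 0.155, and also after negative-probe subtraction (-1.32, adjusted p = 0.161) and with that value as a covariate (-0.66, adjusted p = 0.131). On the ground, GC-BuOE against GC-SAL gave 0.07 (SE 0.12) for Itga7.

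Col6a1 in the FCT was 48.6, 74.7 and 103.8 in FLT-BuOE mice, spread over a wider range than the 35.4 to 56.2 of FLT-SAL mice and overlapping it. The log2 difference was 0.78 (SE 0.20, adjusted p = 0.140 by limma, 0.0387 by edgeR and 0.0266 by DESeq2). Limma called it without mouse 1 of FLT-BuOE (1.06, adjusted p = 0.0091) and without mouse 3 of FLT-SAL (0.99, adjusted p = 0.0254). Other differences named by size were Itgb3 (-0.64) and Col20a1 (0.55) in the FCT, Lama2 (0.63), Col19a1 (-0.47) and Itga8 (-0.47) in the CA, Col23a1 (-0.62), Col8a1 (0.61) and Tnr (-0.50) in the DG, and Itgb5 (-0.55), Col26a1 (0.53), Hapln2 (-0.47) and Col1a1 (0.46) in the CT. Hapln2, a link protein of the nodes of Ranvier, also had -0.49 in the FCT. None of these had an adjusted p under 0.4. In the CT the oligodendrocyte marker sum was 713 to 874 in FLT-BuOE, 1391 to 1913 in FLT-SAL, 891 to 1101 in GC-BuOE and 779 to 841 in GC-SAL mice, and 4 of its 10 genes were called lower in FLT-BuOE than in FLT-SAL, among them Mobp (-1.21) and Cldn11 (-1.04). The cortical excitatory neuron sum in the CT was 373 to 491 in FLT-BuOE and 306 to 346 in FLT-SAL mice. In the FCT it was 369 to 415 and 302 to 332. There the oligodendrocyte sum was 863 to 1138 and 1306 to 1980, and the fibroblast marker sum 184 to 197 and 204 to 248. The part of these sums in the CT values of Hapln2 and the other members, and in Col6a1 in the FCT, was not tested.

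The remaining comparisons called no member by limma. In GC-BuOE against GC-SAL 16 of 308 pairs had an unadjusted p under 0.05 and edgeR and DESeq2 called 0. In FLT-BuOE against GC-BuOE, the flight comparison among treated mice, 26 pairs did, and edgeR and DESeq2 again called 0. All genes were called by limma at 0%, 0%, 0.00634% and 0% in the former and at 0.0444%, 0.108%, 0.019% and 0.0127% in the latter, in the order CA, DG, FCT and CT. In the latter the lower calls made up 0.0253%, 0.0634%, 0.00634% and 0.0127% of all genes. By region the members at an unadjusted p under 0.05 numbered 5, 2, 7 and 2 for GC-BuOE against GC-SAL, beside 5.6%, 5.21%, 5.63% and 3.78% of all genes. For FLT-BuOE against GC-BuOE they numbered 6, 8, 3 and 9, beside 7.52%, 8.24%, 7.17% and 6.65%. Members without overlap were 6, 8, 6 and 6 in the former (9.55%, 9.76%, 10.8% and 8.2% of all genes) and 6, 7, 5 and 9 in the latter (11.3%, 10.5%, 11% and 11%). In the means over regions no member was called by limma in either, where 0% and 0.336% of all genes were. There, 2 and 4 members had an unadjusted p under 0.05 by limma, beside 4.41% and 9.31% of all genes.

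Bcan among treated mice was 64.9, 96.4 and 90.5 after flight and 40.02, 61.4 and 70.3 on the ground in the CA, where the groups overlapped (log2 difference 0.56, SE 0.19, adjusted p = 0.439). In the DG it was 45.0, 45.0 and 37.8 against 34.5, 31.3 and 20.0, without overlap (0.59, SE 0.20, adjusted p = 0.332). These comparisons share no mice with the saline comparison, but the limma fit of a region takes a common spread from all 4 groups. Here too flight and slide cannot be told apart. Over the 4 regions the mean for Bcan was 0.29 (SE 0.11, adjusted p = 0.355), higher in 3 of 4. Col4a2 had -0.32 (SE 0.11, adjusted p = 0.264), lower in 4 of 4, and Itga7 -0.11 (SE 0.12), lower in 3 of 4. Col6a1 in the CT was 29.7, 37.8 and 43.9 after flight and 46.9, 66.0 and 72.3 on the ground among treated mice (-0.71, SE 0.20, adjusted p = 0.308), with no overlap, while in the FCT its groups overlapped (0.13).

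The interaction asks whether flight acted differently with BuOE than with saline. No member was called by limma or DESeq2, 23 of 308 pairs had an unadjusted p under 0.05, and edgeR called 2. By region those 23 were 8, 2, 8 and 5 members, beside 5.39%, 6.39%, 5.43% and 4.81% of all genes. Of all genes limma called 0.00634% in the CA, none in the DG, 0.00634% in the FCT and 0.019% in the CT. The pairs called by edgeR were Col6a1 in the FCT, with 1.31 (SE 0.28, adjusted p = 0.158) by limma and 1.38 (adjusted p = 0.0254) by edgeR, and Lama2 in the CA, with 1.86 (SE 0.40, adjusted p = 0.124) and 1.73 (adjusted p = 0.0307). For Col6a1 limma passed the interaction without mouse 1 of FLT-BuOE (1.59, adjusted p = 0.0030) and without mouse 3 of FLT-SAL (1.52, adjusted p = 0.0246). Lama2, the laminin chain of muscle and capillary basement membrane, is one of the 5 members near background, with a ratio of 1.52 in the CA. Its CA counts were 38.5, 30.5 and 43.0 in GC-SAL, 20.0, 26.7 and 21.6 in FLT-SAL, 8.43, 17.3 and 23.8 in GC-BuOE and 30.4, 34.1 and 43.5 in FLT-BuOE mice, so that the lowest value lay under the negative-probe range. Without mouse 3 of GC-BuOE its interaction was 2.16 with an adjusted p of 0.016 by limma. Without mouse 1 of GC-BuOE limma did not call it. That mouse gave the value of 8.43, in the AOI with the fewest counts, 322629. Itga7 had -1.07 in the CA (adjusted p = 0.908) and -0.85 in the DG (adjusted p = 0.572).

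Few genes of the surrounding lists were called between groups. Of 40 other matrix and basement membrane genes and 28 integrin adhesion adaptors and kinases, none was called in any group comparison of any region. Of 32 genes of matrix synthesis, crosslinking and proteolysis, Mmp17, a membrane-anchored metalloproteinase, was called lower in FLT-BuOE than in GC-BuOE mice in the DG (-0.81, SE 0.15, adjusted p = 0.0054), and no other. Among the cell type lists, calls in FLT-SAL against GC-SAL were 4 of 10 oligodendrocyte genes in the CT, all higher, the CA1 pyramidal cell gene Wfs1 in the CA, given above, and 1 dentate granule cell gene, C1ql2, in the DG (0.60, SE 0.14, adjusted p = 0.038). No meningeal fibroblast, mural cell, endothelium, microglia or astrocyte gene was called in a group comparison.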

How the data were processed

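RNA was profiled on 6 µm sections by GeoMx Digital Spatial Profiling with whole-transcriptome probes, in regions chosen with antibodies to GFAP and Iba1. The authors turned reads into deduplicated probe counts with the GeoMx NGS Pipeline (2.3.4) and deposited these raw counts. In the GeoMx DSP Control Center (3.0.0.111) the authors scaled each AOI by its upper quartile and deposited this Q3-normalized signal for 15782 genes. The upper quartile was 40.02 in all 48 AOIs, so values of different regions share 1 scale. Deposited fold changes and p-values of the authors' own comparisons were not used. Members and gene lists were chosen with earlier results of these data known.

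The mouse was the replicate. Groups were compared with limma (3.58.1, R 4.3.3) on log2(Q3-normalized count + 1), 12 AOIs of a region per fit with 8 residual degrees of freedom, a trend of variance with level, and p-values adjusted by Benjamini-Hochberg, calling genes at an adjusted p under 0.05 and a difference beyond 1.5-fold (no size limit for interactions, means over regions and the F test). Differences are on the log2(value + 1) scale and understate those of low genes. Regions were compared over 48 AOIs with the mouse as a block. edgeR (4.0.16) and DESeq2 (1.42.0) were run on the deposited counts of the probes that match 15777 genes. Fits were tested on simulated data. Members named were all those called, the 3 highest ratios to background per class and the 4 largest differences per region among members at 1.5 times background in the 2 comparisons with FLT-SAL. Coordinates are from GENCODE M21 (GRCm38). The labels do not say whether mice shared a cage. In the group comparisons p-values measure the spread between these mice. In the region comparisons and the F test, where the mouse was a block, they measure the spread left within mice.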

Additional observations from a re-analysis of the deposited data

How the results depend on the processing

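In the comparison in which it was called, each called member kept its direction under every setting tried. Of 245 recomputed counts 205 stayed within 1.5 times and 40 did not, and of 264 recomputed member values 222 kept their side of the threshold and 42 did not. Subtracting the negative-probe value changed the number of called pairs in FLT-SAL against GC-SAL from 2 to 1, of members in the mean over regions from 4 to 2 there and from 1 to 0 in FLT-BuOE against FLT-SAL, of members in DG against CA from 2 to 42 and in hippocampus against cortex from 4 to 12, 6 higher and 6 lower. With that value as a covariate the interaction gave 1 pair, the mean of FLT-BuOE against FLT-SAL gave 0 members and DG against CA gave 1. edgeR gave 1 pair in FLT-BuOE against FLT-SAL and 2 for the interaction. DESeq2 gave 1 pair in FLT-BuOE against FLT-SAL and 0 members in FCT against CT, where it returned no adjusted p for Col5a1. Taking 2 times the negative-probe value left 14 of 72 members above background, and the median ratio 61.

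Leaving out 1 mouse at a time gave 0 to 2 pairs in FLT-SAL against GC-SAL, 0 to 1 in each of the other 3 pairwise comparisons and for the interaction, 0 to 4 members in the mean over regions of FLT-SAL against GC-SAL and 0 to 1 in that of FLT-BuOE against FLT-SAL, 2 to 4 in DG against CA (4 without GC-BuOE mouse 1, which added Lama2 and Hapln4), 3 to 4 in hippocampus against cortex and 0 to 1 in the F test. Mice of different groups that share a number were not paired: 48 correlations of their deviations ran from -0.18 to 0.10, median 0.02, and none exceeded 0.1. The replicate block gave 1 pair in FLT-BuOE against FLT-SAL and 1 for the interaction, both Col6a1 in the FCT, and 3 in FLT-SAL against GC-SAL, where Col4a2 in the CT was added. The distance from background was smallest in the CA, where 26 of 77 members stood 1.5 times above it and the negative-probe value was 16.1 to 20.9. There a median of 59.8% of all genes per AOI reached 1.5 times.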
